A study of Homo sapiens with 9 samples.

Results

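The genes described here were 31 enzymes that make, recycle or interconvert purine and pyrimidine nucleotides, read from a table of 25084 genes in LAN5 cells. They were chosen by gene symbol for their known roles, with earlier results of these data known. All 31 were found in the table and reached the level at which a gene was tested. By role they were 2 synthetases of phosphoribosyl pyrophosphate (PRPP), 10 enzymes of de novo purine synthesis, 5 of de novo pyrimidine synthesis, 7 of deoxynucleotide supply, 4 of salvage and 3 that transfer phosphates between nucleotides. LAN5 is a human neuroblastoma cell line with an amplified MYCN gene. The cells were nucleofected with a control siRNA (siCTR), an siRNA against the transcription factor MYCN (siMYCN, listed as siMYCN_2) or one against the transcription factor HAND2 (siHAND2, listed as siHAND2_3), and RNA was taken after 72 h in growth medium. Each group had 3 libraries from this 1 line, and each target was represented by a single named siRNA, so an effect of the target and an off-target effect of its siRNA cannot be told apart. The labels do not say whether the 3 libraries of a group came from separate cultures, so p-values measure only the spread between these libraries.

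Purine synthesis builds the ring of inosine monophosphate step by step on PRPP, after which separate branches lead to adenine and guanine nucleotides. Pyrimidine synthesis builds the ring first, as orotate, and then joins it to PRPP to give uridine monophosphate, from which cytidine nucleotides are made. Ribonucleotide reductase turns ribonucleotides into deoxynucleotides for DNA, and salvage enzymes recover free bases and nucleosides. Several genes of these pathways are textbook targets of the MYC family, whose members, like HAND2, are basic helix-loop-helix proteins and bind E-box sequences.

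Values are CPM, read counts scaled to a common library total, as the authors deposited them. A fold change is the difference of mean log2(CPM + 1) between groups, with its standard error (SE), and a gene was called where limma's adjusted p over 14495 tested genes was under 0.05. MYCN, on chromosome 2, was at 1848, 1894 and 1786 CPM in the siCTR libraries (replicates 1 to 3, the order used throughout), 1338, 1245 and 1285 after siMYCN and 898, 969 and 877 after siHAND2. MYCN was thus reduced in all knockdown libraries, and more under siHAND2 (49.6% of the siCTR mean) than under siMYCN (70.0%). HAND2 was at 516, 499 and 489 CPM with the control siRNA, 588, 557 and 568 after siMYCN and 268, 267 and 280.4 after siHAND2. It was therefore higher than control in siMYCN (log2 change 0.19, SE 0.04, adjusted p = 0.00183) and lower in siHAND2 (log2 change -0.88, SE 0.04, adjusted p = 1.25e-10). The depth estimated from the smallest step between CPM values was 21.1 to 32.7 M reads per library. It is a rough value, since only 79.2% to 80.5% of low values were whole multiples of that step.

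Most of the 31 genes were lower after either knockdown, by modest amounts. Under siMYCN 21 were called lower, 2 higher and 8 neither, where 11.4% of all tested genes were called lower, 24.5% higher and 35.9% in either direction. Under siHAND2 17 were called lower, 2 higher and 12 neither, against 11.8%, 18.1% and 29.9% of all tested genes. The median log2 change of the 31 genes was -0.21 under siMYCN (range -0.63 to 0.17), beside a median of 0.06 over all tested genes, and -0.16 under siHAND2 (range -0.70 to 0.26), beside 0.04. All 3 siMYCN libraries lay below all 3 siCTR libraries for 27 of the 31 genes and above them for 2, a pattern found downward in 16.1% and upward in 33.4% of tested genes. The siHAND2 libraries lay below all siCTR libraries for 23 genes and above them for 2, beside 16.6% and 25.8% of tested genes.

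The summed level of the 31 genes was 3929, 3957 and 3948 CPM with the control siRNA, 3340, 3303 and 3328 after siMYCN and 3484, 3469 and 3542 after siHAND2. The sum therefore stood at 84.3% of control under siMYCN and 88.7% under siHAND2, with no overlap between any 2 groups. RNA was measured in bulk, so fewer cells that carry a transcript and less of it per cell cannot be told apart. Both comparisons use the same 3 siCTR libraries. CPM are shares of a library. After median-ratio rescaling the share of called genes that were higher fell from 68.3% to 50.7% under siMYCN and from 60.6% to 45.9% under siHAND2. The members called lower then numbered 26 and 21. Genes called lower in the whole table also rose, from 1653 to 2351 under siMYCN and from 1709 to 2299 under siHAND2. The genes tested numbered 14495 before and 14498 after rescaling.

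**Figure D1:**
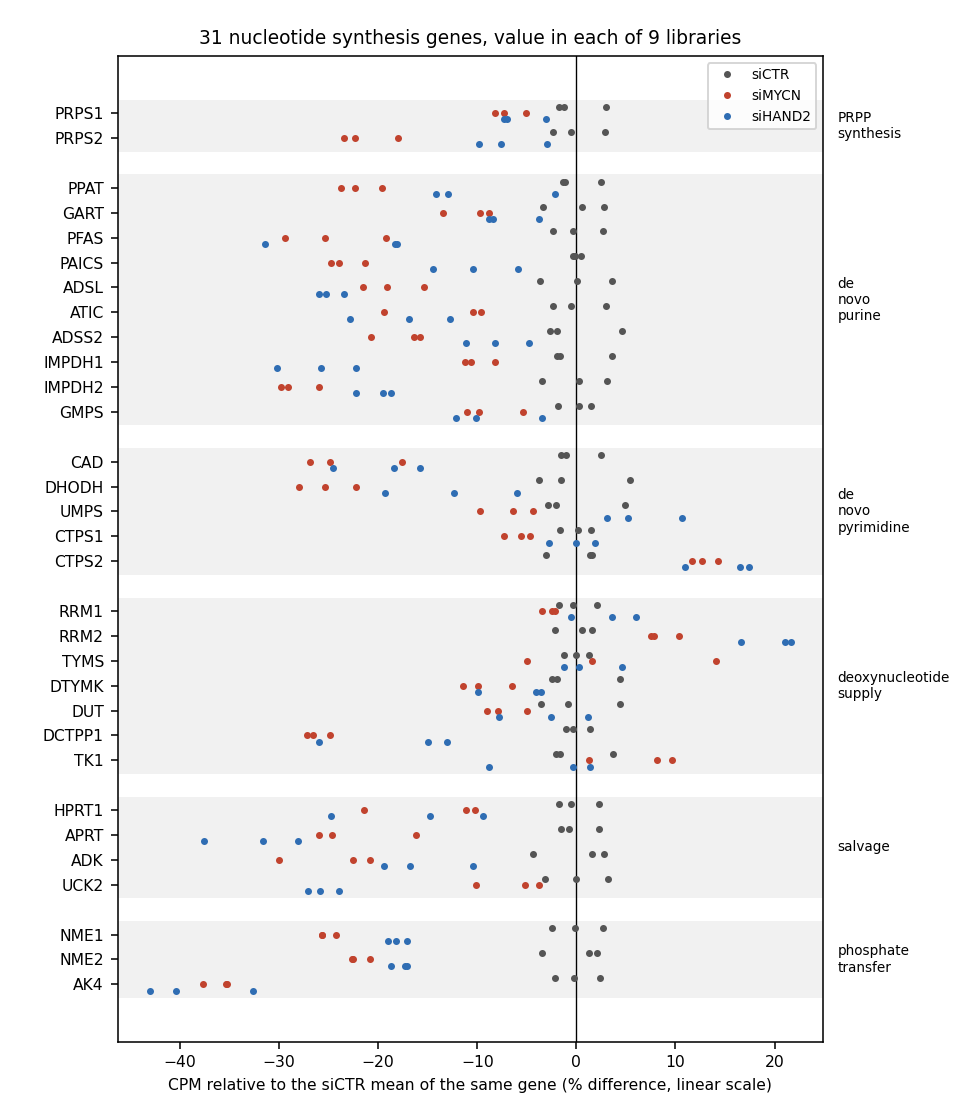
Level of each of the 31 genes in each library as the percent difference from the siCTR mean of that gene (x axis, linear), with genes grouped by role on the y axis and 1 point per library. Most siMYCN (red) and siHAND2 (blue) points lie left of the siCTR points (grey), furthest for AK4, whose means were 63.9% and 61.3% of siCTR, while CTPS2 and RRM2 lie to the right.

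Promoter windows, from 250 bases before to 50 after a RefSeq transcript start on GRCh38.p14, were matched for 29 of the 31 genes. ADSL and IMPDH2 had none. The canonical E-box CACGTG, which reads the same on both strands, was present in a window of 7 of these 29 genes (24.1%) and of 1325 of 10364 tested genes with windows (12.8%), at 1.62 and 1.47 windows per gene. The 7 genes were PPAT, PAICS, ATIC, DHODH, DCTPP1, NME1 and AK4. Their sites are shown because all 7 genes were called lower in siMYCN. Each line runs 5′ to 3′ on the strand of the gene, with the E-box in capitals.
PPAT, chr4:56435780-56435809, minus strand, E-box 182 bases before the start: aacggagatttcCACGTGcagcaaatacag
ATIC, chr2:215312001-215312030, plus strand, 46 bases before the start: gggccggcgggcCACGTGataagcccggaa
ATIC, chr2:215312076-215312105, plus strand, 30 bases after the start: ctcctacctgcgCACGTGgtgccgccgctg
DHODH, chr16:72008573-72008602, plus strand, 159 bases before the start: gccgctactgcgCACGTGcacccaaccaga
DCTPP1, chr16:30429792-30429821, minus strand, 9 bases before the start: ggagggttcctcCACGTGgtcgggaagcgg
NME1, chr17:51153581-51153608, plus strand, 35 bases after the start: agtgctgcgaacCACGTGggtcccgggc
AK4, chr1:65147447-65147476, plus strand, 93 bases before a start: ggtcgcagggagCACGTGggccaggcaggc
AK4, chr1:65147858-65147887, plus strand, 18 bases after another start: ccacacgttgccCACGTGcgaggaccgggc

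PPAT and PAICS share 1 of these sites, since they are neighbours that start 126 bases apart on opposite strands. Under siMYCN all 7 genes with CACGTG in a window and 12 of the 22 without it there were called lower. Of tested genes with windows, 21.1% of those with CACGTG and 10.9% of those without it were. Sites outside the windows were not searched. The same counts under siHAND2 were 6 of 7 and 9 of 22, beside 20.9% and 11.7%. A second E-box, CATCTG (searched on both strands), was in 10.6% of the members' 47 windows and in 10.2% of the 15221 windows of tested genes. A match of letters is a description and does not show that a factor binds there.

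PRPP synthetases make the activated ribose that both de novo pathways and base salvage consume. PRPS2 fell under siMYCN, and PRPS1 did not pass the test in either knockdown. Per kilobase of canonical transcript PRPS1 had the higher level in siCTR, 28.8 ± 0.742 CPM against 12.7 ± 0.334. PRPS2 was at 31.2, 32.2 and 30.6 CPM with the control siRNA, 24.0, 24.3 and 25.7 after siMYCN and 28.2, 29.0 and 30.4 after siHAND2. Its siMYCN libraries lay below all others, with a log2 change of -0.33 from control (SE 0.05, adjusted p = 0.000201). The siHAND2 change was -0.10 (adjusted p = 0.19). PRPS1 was at 58.6, 61.4 and 58.9 CPM with the control siRNA, 54.8, 55.3 and 56.6 after siMYCN and 55.3, 57.8 and 55.5 after siHAND2. All its knockdown libraries were slightly below control, with log2 changes of -0.10 (adjusted p = 0.0933) and -0.08 (adjusted p = 0.173). The siMYCN change of PRPS1 passed the test after median-ratio rescaling (-0.16, adjusted p = 0.0114) and after quantile normalization, and its siHAND2 change after median-ratio rescaling (-0.13, adjusted p = 0.0397).

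All 10 genes of de novo purine synthesis were called lower under siMYCN, and 8 of 10 under siHAND2. Of all tested genes, 11.4% and 11.8% were called lower. The median log2 change of the 10 genes was -0.29 under siMYCN and -0.21 under siHAND2. For all 10 genes both sets of knockdown libraries lay below the siCTR libraries, a pattern found in 16.1% (siMYCN) and 16.6% (siHAND2) of tested genes. The summed level of the 10 genes was 1464 to 1486 CPM with the control siRNA, 1173 to 1198 after siMYCN and 1244 to 1297 after siHAND2. Without replicate 2 of siHAND2, 5 of the 10 genes were called lower in that knockdown, and without replicate 3 all 10 were. In these fits 1332 of 14380 and 1839 of 14373 tested genes were called lower. Under siMYCN 7 to 9 of the 10 genes were called lower when 1 siCTR or siMYCN library was left out. The number over all tested genes was then 1246 to 1403, in place of 1653.

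PPAT commits PRPP to the purine pathway, and its neighbour PAICS carries out a pair of middle steps. PAICS was at 341, 341 and 343 CPM with the control siRNA, 259.8, 257 and 269 after siMYCN and 306, 292 and 322 after siHAND2. The 3 groups did not overlap, and siHAND2 lay between the other two. The log2 change was -0.38 under siMYCN (SE 0.04, adjusted p = 3.46e-06) and -0.16 under siHAND2 (SE 0.04, adjusted p = 0.00928). Without replicate 2 of siHAND2 the latter was -0.12 with an adjusted p of 0.0538. PPAT followed the same order, with means of 133 ± 2.92 (SD, n = 3) CPM with the control siRNA, 104 ± 2.80 after siMYCN and 120.2 ± 8.76 after siHAND2. Its change under siMYCN was -0.35 (SE 0.05, adjusted p = 4.49e-05), and that under siHAND2 (-0.15, adjusted p = 0.0325) missed the threshold in 6 of 15 alternatives, among them leaving out any siCTR library or replicate 1 or 2 of siHAND2.

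Other enzymes of the ring synthesis changed to different extents. PFAS, which forms the amidine intermediate, averaged 163 ± 4.08 CPM with the control siRNA, 122 ± 8.39 after siMYCN and 126 ± 12.4 after siHAND2, with log2 changes of -0.41 (adjusted p = 0.000118) and -0.37 (adjusted p = 0.000316). GART, a single protein with 3 activities of the pathway, changed less, by -0.16 under siMYCN (adjusted p = 0.00787) and by -0.10 under siHAND2 (adjusted p = 0.0795). The latter passed the test after median-ratio rescaling (-0.15, adjusted p = 0.0107), after quantile normalization and without replicate 3 of siHAND2. GART overlaps SON on the opposite strand, which was at 173 CPM in siCTR and 202 in siHAND2. Whether the counting used strand is not given in the sources used here, so reads of the 2 genes may be mixed. ATIC, which closes the purine ring, averaged 51.5 ± 1.40, 44.7 ± 2.81 and 42.5 ± 2.62 CPM in siCTR, siMYCN and siHAND2. Its log2 changes were -0.20 (adjusted p = 0.0125) and -0.27 (adjusted p = 0.00202), and the first missed the threshold without replicate 2 of siCTR or replicate 3 of siMYCN.

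ADSL acts both within the ring synthesis and in the adenine branch. It was at 99.9, 107 and 104 CPM with the control siRNA, 83.9, 87.7 and 81.4 after siMYCN and 77.5, 76.8 and 79.3 after siHAND2. Here siHAND2 held the lowest libraries, with a log2 change of -0.41 (SE 0.04, adjusted p = 3.51e-06) against -0.30 under siMYCN (SE 0.04, adjusted p = 9.66e-05). The gap between the knockdowns, -0.11, did not pass the test (adjusted p = 0.0748). ADSL overlaps SGSM3 on the same strand, which averaged 38.9, 43.4 and 38.4 CPM in siCTR, siMYCN and siHAND2. Reads of these genes may be mixed. ADSS2, which feeds ADSL in the adenine branch, fell under siMYCN from 93.9 ± 3.73 to 77.3 ± 2.54 CPM (log2 change -0.28, adjusted p = 0.000246). It stood at 86.3 ± 3.01 CPM in siHAND2 (log2 change -0.12, adjusted p = 0.0641), a change that passed the test after median-ratio rescaling (-0.16, adjusted p = 0.0119), after quantile normalization and without replicate 3 of siHAND2.

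The guanine branch begins with IMP dehydrogenase, of which IMPDH2 (chr3:49024325-49029408) was by far the more abundant form. Per kilobase of its canonical transcript IMPDH2 had a level of 133 ± 4.38 CPM in siCTR and IMPDH1 one of 16.2 ± 0.508. IMPDH2 was at 220.3, 227 and 212 CPM with the control siRNA, 163, 154 and 156 after siMYCN and 179, 171 and 177 after siHAND2. No group overlapped another, and siMYCN was lowest, at 71.7% of control. The log2 change was -0.48 under siMYCN (SE 0.04, adjusted p = 3.73e-07), the largest fall of the 10 purine genes there, and -0.32 under siHAND2 (SE 0.04, adjusted p = 1.82e-05). IMPDH1 showed the other order, with means of 42.2 ± 1.33 CPM with the control siRNA, 38.0 ± 0.677 after siMYCN and 31.2 ± 1.69 after siHAND2. Its fall under siHAND2 was -0.43 (adjusted p = 1.48e-05), whereas that under siMYCN (-0.15, adjusted p = 0.0391) missed the threshold in 8 of 15 alternatives, including the omission of any of the 6 libraries. GMPS, which makes guanosine monophosphate, fell by 0.13 on the log2 scale in both knockdowns (adjusted p = 0.0277 and 0.0342), calls that were lost in 5 and 7 of 15 alternatives. Its siMYCN call was lost without replicate 1 or 2 of siCTR or of siMYCN, and its siHAND2 call without any siCTR library or without replicate 1 or 2 of siHAND2.

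**Figure D2:**
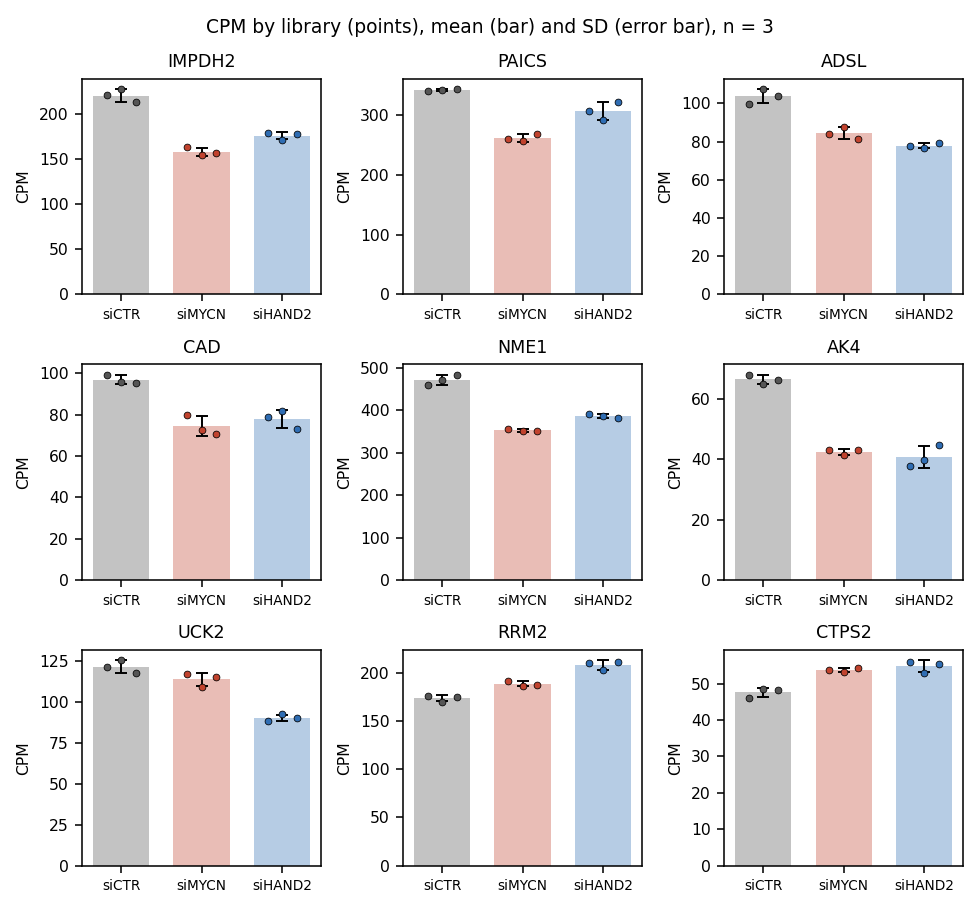
CPM (y axis, from 0) of 9 of the genes in siCTR, siMYCN and siHAND2, with a point per library, bars for means and error bars for SD (n = 3). IMPDH2, PAICS, ADSL, CAD, NME1 and AK4 are lower in all knockdown libraries than in all siCTR libraries, UCK2 stands at 74.4% of siCTR in siHAND2 and at 93.6% in siMYCN, and RRM2 and CTPS2 are higher in both.

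In de novo pyrimidine synthesis the entry enzyme CAD fell in both knockdowns, and CTPS2, 1 of the CTP synthases of the final step, was called higher in both. Under siMYCN 2 of 5 genes were called lower and 1 higher, and under siHAND2 1 lower and 1 higher. Of all tested genes 11.4% were called lower and 24.5% higher under siMYCN, and 11.8% and 18.1% under siHAND2. After median-ratio rescaling 4 of the 5 were lower under siMYCN, with UMPS and CTPS1 added, and 2 under siHAND2, with DHODH added. Of all 14498 genes tested there, 2351 and 2299 were lower. CAD, the trifunctional protein that starts the pathway, was at 99.3, 95.9 and 95.4 CPM with the control siRNA, 79.8, 72.8 and 70.8 after siMYCN and 79.1, 81.6 and 73.1 after siHAND2. Both knockdowns lay below control and overlapped each other. The log2 change was -0.38 under siMYCN (SE 0.05, adjusted p = 4.66e-05) and -0.31 under siHAND2 (SE 0.05, adjusted p = 0.000312). DHODH, the mitochondrial enzyme that makes orotate, had the lowest level per kilobase of the 31 genes in siCTR (3.02 ± 0.144 CPM). It was at 13.9, 14.9 and 13.6 CPM with the control siRNA, 10.1, 11.0 and 10.5 after siMYCN and 12.4, 13.3 and 11.4 after siHAND2. The siMYCN libraries were lowest, with a log2 change of -0.39 (SE 0.07, adjusted p = 0.000699), and the siHAND2 change was -0.18 (adjusted p = 0.0754), or -0.23 with an adjusted p of 0.0498 without replicate 2 of siHAND2.

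UMPS, which turns orotate into uridine monophosphate, averaged 58.5 ± 2.52 CPM with the control siRNA, 54.5 ± 1.58 after siMYCN and 62.2 ± 2.29 after siHAND2, and neither difference from control passed the test (adjusted p = 0.126 and 0.196). The CTP synthases, which make the cytidine nucleotide, differed from each other. CTPS2 was at 46.2, 48.4 and 48.3 CPM with the control siRNA, 53.6, 53.1 and 54.4 after siMYCN and 55.9, 52.8 and 55.4 after siHAND2. All 6 knockdown libraries lay above control, with log2 changes of 0.17 (SE 0.05, adjusted p = 0.0083) and 0.20 (SE 0.05, adjusted p = 0.00405), the first of which missed the threshold after median-ratio rescaling (0.11, adjusted p = 0.0608) and after quantile normalization. CTPS1 averaged 67.1 ± 1.06, 63.2 ± 0.872 and 66.9 ± 1.54 CPM, with adjusted p-values of 0.132 under siMYCN and 0.947 under siHAND2. The siMYCN value of CTPS1 passed the test after both rescalings, at -0.14.

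The deoxynucleotide group had the summed level nearest to control of the 6 roles, at 98.4% in siMYCN and 103% in siHAND2. The sum was 833 to 858 CPM with the control siRNA, 825 to 838 after siMYCN and 860.1 to 882 after siHAND2. Of the 7 genes 4 passed no test against control, where 35.9% (siMYCN) and 29.9% (siHAND2) of all tested genes were called in either direction. RRM2, the small subunit of ribonucleotide reductase, was at 177, 170.3 and 175 CPM with the control siRNA, 192, 187 and 188 after siMYCN and 211, 203 and 212 after siHAND2. The 3 groups did not overlap and siHAND2 was highest. The change was 0.26 under siHAND2 (SE 0.04, adjusted p = 8.6e-05). Under siMYCN it was 0.12 (SE 0.04, adjusted p = 0.0249), a call lost in 7 of 15 alternatives: both rescalings (0.06 in each), the fit without an intensity trend and the omission of replicate 2 or 3 of siCTR or replicate 1 or 3 of siMYCN. RRM1, the large subunit, averaged 306 ± 6.01, 297 ± 2.08 and 315 ± 10.1 CPM and was not called in either knockdown (adjusted p = 0.468 and 0.439).

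DCTPP1, a pyrophosphatase that breaks down deoxycytidine triphosphate and its modified forms, stood apart from the rest of this group. It was at 50.5, 51.7 and 50.9 CPM with the control siRNA, 37.2, 37.5 and 38.4 after siMYCN and 43.4, 44.4 and 37.8 after siHAND2. All knockdown libraries were below control, with log2 changes of -0.43 (SE 0.06, adjusted p = 2.91e-05) and -0.28 (SE 0.06, adjusted p = 0.0014). DTYMK, the thymidylate kinase, was at 49.1, 48.9 and 52.3 CPM with the control siRNA, 44.3, 46.8 and 45.1 after siMYCN and 48.3, 48.1 and 45.1 after siHAND2. Its siMYCN fall of -0.14 (SE 0.05, adjusted p = 0.041) was lost in 7 of 15 alternatives, among them the omission of any siCTR library or of replicate 1 or 3 of siMYCN, and its siHAND2 change was -0.09 (adjusted p = 0.219). TYMS, the thymidylate synthase, averaged 80.9 ± 1.04, 83.8 ± 7.85 and 81.9 ± 2.45 CPM, and its groups overlapped. TK1, the cytosolic thymidine kinase of dividing cells, averaged 62.6 ± 2.01, 66.6 ± 2.81 and 61.0 ± 3.42 CPM, also with overlap. DUT, which removes deoxyuridine triphosphate, averaged 120.3 ± 4.92, 112 ± 2.48 and 117 ± 5.41 CPM, and its siMYCN libraries lay just below control (adjusted p = 0.0807) and passed the test after median-ratio rescaling (-0.17, adjusted p = 0.00842). The adjusted p-values of TYMS and TK1 were 0.209 to 0.85.

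Genes of DNA replication are given beside this group because several deoxynucleotide enzymes are made mainly in S phase. Of 38 such genes, 4 were called higher and 5 lower under siMYCN, where 24.5% and 11.4% of all tested genes were. Under siHAND2 7 were higher and 1 lower, beside 18.1% and 11.8% of all tested genes. The summed level of the 38 genes was 4421 to 4531 CPM with the control siRNA, 4435 to 4554 after siMYCN and 4560.4 to 4819 after siHAND2, or 99.6% and 104% of control. These counts depended on scaling: after median-ratio rescaling they were 1 higher and 13 lower under siMYCN, and 2 genes were called higher under siHAND2. Of all 14498 genes tested there, 2417 were higher and 2351 lower under siMYCN, and 1952 were higher under siHAND2. The counts of the 38 genes also depended on single libraries. Under siMYCN 2 were lower without replicate 1 or 3 of siCTR or of siMYCN. In the same knockdown 2 were higher without replicate 2 of siCTR or replicate 1 of siMYCN. Under siHAND2 3 were higher without replicate 1 or 2 of siCTR and none lower without replicate 2. The part of S phase in the members' values was not tested.

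The salvage genes were reduced in both knockdowns. Called lower were 3 of 4 under siMYCN and 4 of 4 under siHAND2, beside 11.4% and 11.8% of all tested genes. The 4 salvage genes summed to 226 to 234 CPM in siCTR, 195 to 201 in siMYCN and 171 to 179 in siHAND2. The siHAND2 level was thus lowest here. UCK2, which phosphorylates uridine and cytidine, was at 122, 126 and 118 CPM with the control siRNA, 117, 109 and 115 after siMYCN and 88.7, 92.4 and 90.1 after siHAND2. The siHAND2 libraries lay well below the others, with a log2 change of -0.42 (SE 0.04, adjusted p = 1.62e-06). Under siMYCN the change was -0.09 (SE 0.04, adjusted p = 0.105), and it passed the test after median-ratio rescaling (-0.15, adjusted p = 0.0132) and after quantile normalization. UCK2 (chr1:165827614-165911618) overlaps TMCO1 on the opposite strand, which averaged 79.1, 86.5 and 77.0 CPM in siCTR, siMYCN and siHAND2.

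APRT, which recovers adenine, was at 30.2, 29.1 and 29.3 CPM with the control siRNA, 24.8, 22.2 and 21.9 after siMYCN and 20.2, 21.2 and 18.4 after siHAND2. Control was highest and siHAND2 lowest, without overlap. The log2 change was -0.35 under siMYCN (SE 0.07, adjusted p = 0.000581) and -0.55 under siHAND2 (SE 0.07, adjusted p = 9.49e-06). ADK, the adenosine kinase, was at 51.4, 54.6 and 55.3 CPM with the control siRNA, 37.6, 41.6 and 42.6 after siMYCN and 43.3, 44.8 and 48.2 after siHAND2. For this gene siMYCN was lowest, with log2 changes of -0.40 (SE 0.06, adjusted p = 6.7e-05) and -0.24 (SE 0.06, adjusted p = 0.00525). HPRT1, which recovers hypoxanthine and guanine, averaged 24.4 ± 0.515, 20.9 ± 1.52 and 20.4 ± 1.91 CPM, with changes of -0.21 (adjusted p = 0.0286) and -0.25 (adjusted p = 0.0153). Its siMYCN call was lost in 5 of 15 alternatives (no filter on low values, no intensity trend, and without replicate 1 or 2 of siCTR or replicate 1 of siMYCN), and its siHAND2 call without replicate 2 of siCTR or replicate 1 of siHAND2.

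The phosphate transfer genes fell in every comparison with control, and these 6 calls held under all alternatives run. Of all tested genes, 11.4% were called lower under siMYCN and 11.8% under siHAND2. AK4 (chr1:65147549-65232145), a mitochondrial adenylate kinase, had the largest fall of the 31 genes in both knockdowns. It was at 67.9, 64.9 and 66.2 CPM with the control siRNA, 42.9, 41.3 and 42.9 after siMYCN and 37.8, 39.6 and 44.7 after siHAND2. The knockdowns overlapped each other and lay far below control, with log2 changes of -0.63 (SE 0.06, adjusted p = 6.03e-07) and -0.70 (SE 0.06, adjusted p = 1.33e-07). A related sequence, AK4P1, is listed separately at a mean of 4.14 CPM, so reads shared with it may be split between the 2 entries.

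NME1 and NME2 are neighbouring genes on chromosome 17 for nucleoside diphosphate kinases, which equalise the triphosphate pools. They were the most abundant members per kilobase of transcript in siCTR, NME2 at 698 ± 21.0 CPM and NME1 at 529 ± 13.7. NME1 was at 459, 470.2 and 483 CPM with the control siRNA, 357, 350.0 and 349.8 after siMYCN and 390.2, 385 and 381 after siHAND2. The groups were fully separate, with log2 changes of -0.42 (SE 0.04, adjusted p = 5.13e-07) and -0.29 (SE 0.04, adjusted p = 2.15e-05). NME2 was at 465, 492 and 488 CPM with the control siRNA, 382, 373 and 373 after siMYCN and 392, 399.6 and 398 after siHAND2. It was separate in the same order, with changes of -0.36 (SE 0.04, adjusted p = 2.94e-06) and -0.28 (SE 0.04, adjusted p = 3.52e-05). The readthrough NME1-NME2 is a row of its own at 32.0, 26.7 and 29.3 CPM, and how reads were divided among the 3 entries is not given in the sources used here.

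**Figure D3:**
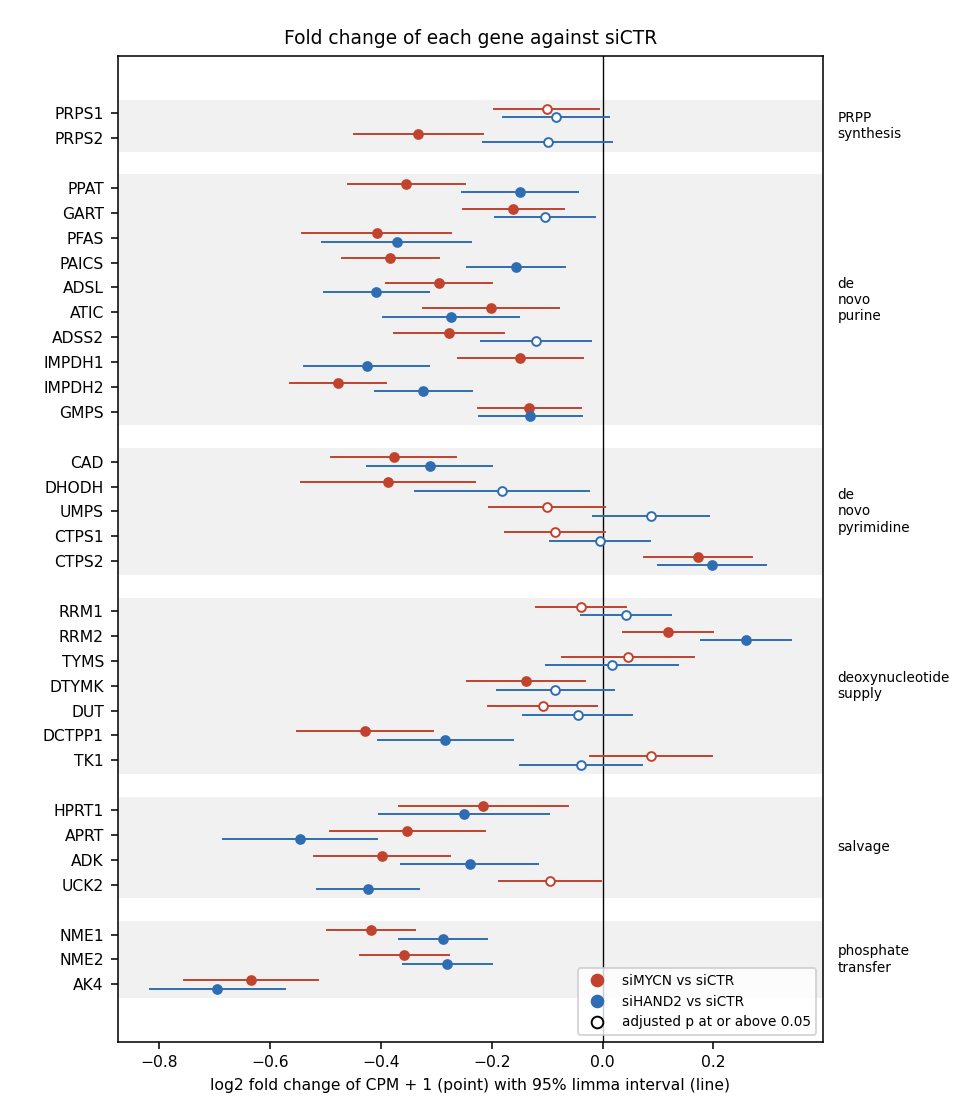
Log2 fold change of CPM + 1 against siCTR (x axis, points) with its 95% limma interval (lines) for siMYCN (red) and siHAND2 (blue), genes grouped by role, open points where the adjusted p was 0.05 or above. All purine points lie left of 0, from -0.48 (IMPDH2, siMYCN) to -0.10 (GART, siHAND2), the AK4 points lie furthest left, and CTPS2 and RRM2 lie right of 0.

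Set directly against each other, the knockdowns differed for 12 of the 31 genes. In siHAND2 9 genes were called higher than in siMYCN and 3 lower, where 11.4% of tested genes were called higher, 15.5% lower and 26.9% in either direction. The median difference was 0.06 on the log2 scale (range -0.33 to 0.23), beside -0.01 over all tested genes. The higher genes were PRPS2, PPAT, PAICS, ADSS2, IMPDH2, DHODH, UMPS, RRM2 and NME1, most of them reduced less by siHAND2 than by siMYCN. MYCN RNA was lower in siHAND2 than in siMYCN, and its part in these values was not tested. In siHAND2 both HAND2 and MYCN were below control, so their effects cannot be told apart. The largest differences among the 9 higher genes were those of PRPS2, at 0.23 (SE 0.05, adjusted p = 0.00437), and PAICS, at 0.23 (SE 0.04, adjusted p = 0.000615). The lower genes were UCK2, at -0.33 (SE 0.04, adjusted p = 2.58e-05), IMPDH1, at -0.28 (SE 0.05, adjusted p = 0.000913), and APRT, at -0.19 (SE 0.07, adjusted p = 0.0381).

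Of these 12 calls 8 held under all 15 alternatives. APRT missed the threshold in 9 of them, including both rescalings and the omission of replicate 1 or 2 of siMYCN or replicate 1 or 3 of siHAND2, and DHODH (0.21, adjusted p = 0.0489) in 8, including the omission of any siMYCN library or of replicate 1 or 2 of siHAND2. ADSS2 (0.16, adjusted p = 0.0194) missed it in 3, without an intensity trend or without replicate 2 of siMYCN or of siHAND2, and NME1 (0.13, adjusted p = 0.0155) without an intensity trend. For AK4 the difference was -0.06 with a 95% interval of -0.18 to 0.06. CAD had a difference of 0.06 (interval -0.05 to 0.18) and GMPS one from -0.09 to 0.09, so these data bound but do not exclude small differences.

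**Figure D4:**
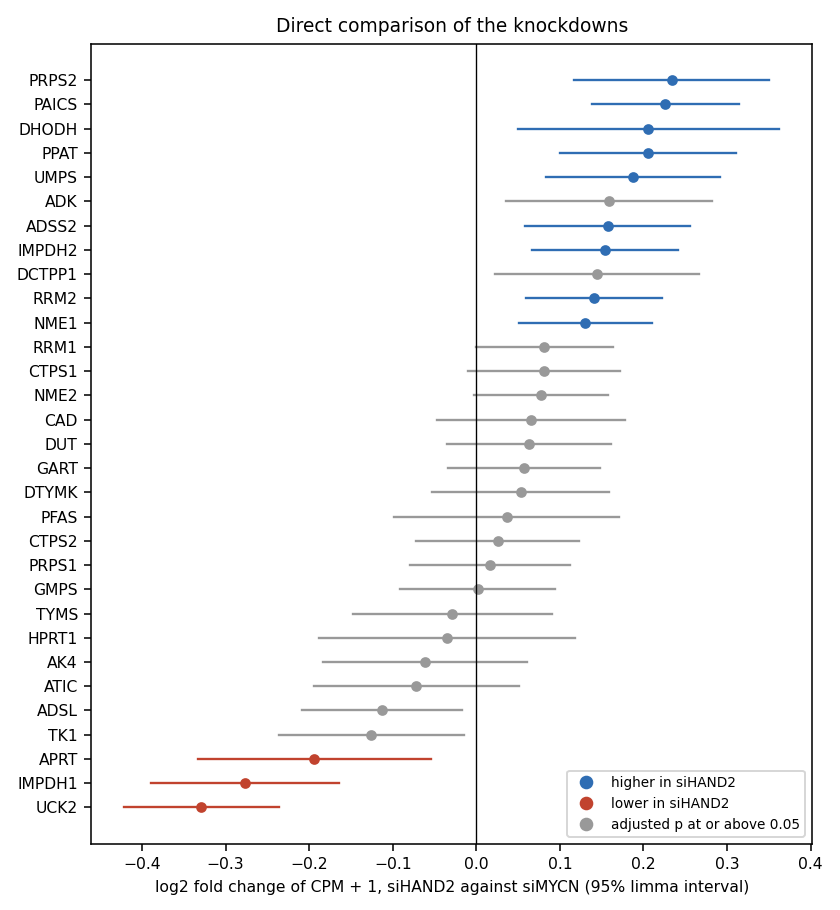
Difference between siHAND2 and siMYCN in mean log2(CPM + 1) for each of the 31 genes (x axis), ordered by size, with 95% limma intervals. The 9 genes called higher in siHAND2 (blue) reach 0.23, the 3 called lower (red) reach -0.33, and the remaining 19 (grey) did not pass the test.

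Enzymes that share a reaction did not always move together. The difference in log2(CPM + 1) between partners was taken within each library, so that the scaling of a library largely cancels, and compared between groups with an exact two-sided permutation test, for which 3 against 3 libraries cannot give a p below 0.1. IMPDH1 minus IMPDH2 was -2.38, -2.35 and -2.33 with the control siRNA, -2.08, -1.97 and -2.03 after siMYCN and -2.47, -2.35 and -2.55 after siHAND2. The siMYCN libraries were above the others without overlap, by 0.33 over control (exact p = 0.1, adjusted p = 0.141 over 24 tests), and siHAND2 overlapped control. CTPS1 minus CTPS2 was 0.51, 0.47 and 0.49 with the control siRNA, 0.21, 0.25 and 0.23 after siMYCN and 0.26, 0.30 and 0.30 after siHAND2. Both knockdowns lay below control, by 0.26 and 0.20.

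PRPS1 minus PRPS2 moved by 0.23 under siMYCN, without overlap, and by 0.01 under siHAND2, with overlap. RRM1 minus RRM2 was lower without overlap in both knockdowns, by -0.16 and -0.22. NME1 minus NME2 moved little, by -0.06 under siMYCN, without overlap, and by -0.01 under siHAND2, with overlap. The exact p was 0.1, the smallest possible, and the adjusted p 0.141 for each comparison without overlap. With so few libraries this test could not pass a threshold of 0.05, so it does not decide whether these ratios shifted.

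**Figure D5:**
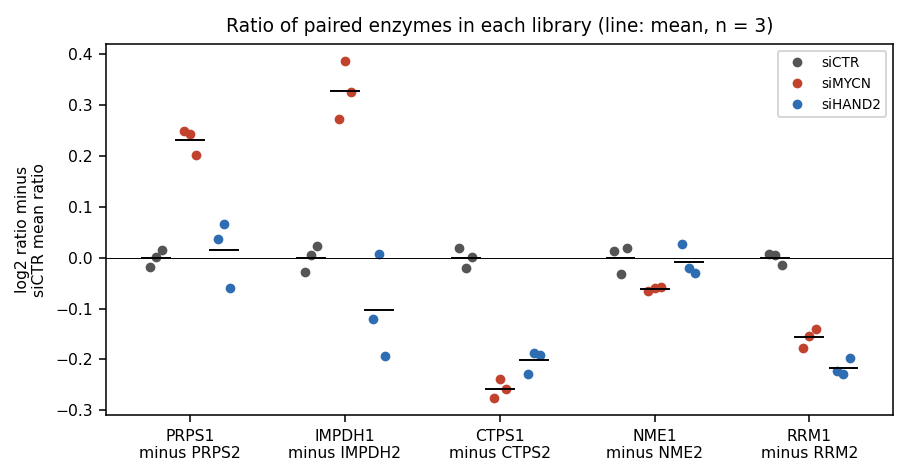
Log2(CPM + 1) difference between the 2 enzymes of a pair in each library, as the distance from the siCTR mean of that pair (y axis), for 5 pairs, with 1 point per library and a line at the mean of 3. IMPDH1 minus IMPDH2 is 0.33 higher in siMYCN, CTPS1 minus CTPS2 is lower in both knockdowns, and NME1 minus NME2 stays within 0.1 of the control mean.

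Other genes of nucleotide metabolism, 63 in the list for the same pathways, were called in both directions. Of these 54 were in the table and 45 were tested. Under siMYCN 9 were called higher and 10 lower (median log2 change -0.01), beside 24.5% and 11.4% of all tested genes. Under siHAND2 5 were higher and 9 lower (median -0.03), beside 18.1% and 11.8% of all tested genes. The higher genes of this list numbered 5 and 3 after median-ratio rescaling, where 2417 and 1952 of 14498 tested genes were higher. Without replicate 2 of siCTR 6 were lower under siMYCN and 3 higher under siHAND2, and the latter count was also 3 without replicate 1 or 3 of siHAND2. Their summed level was 98.6% of control in siMYCN and 97.6% in siHAND2. The members and this list were chosen with results of these data known, and the difference between the lists was not tested.

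Among those averaging at least 5 CPM the large falls under siMYCN included SLC29A2, and the largest rises were in AK1 and CMPK2. SLC29A2, a nucleoside transporter, averaged 7.07 ± 0.585, 5.02 ± 0.441 and 5.11 ± 0.178 CPM, with a change of -0.42 under siMYCN (adjusted p = 0.00178) and -0.40 under siHAND2 (adjusted p = 0.0033). AK1, the cytosolic adenylate kinase, rose under siMYCN by 0.38 (SE 0.07, adjusted p = 0.000477), from 28.7 ± 1.10 to 37.7 ± 2.65 CPM, and stood at 30.4 ± 2.71 in siHAND2. AK1 and AK4, which catalyse one kind of reaction in different compartments, thus moved in opposite directions under siMYCN.

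Under siHAND2 the largest falls were in SLC29A1 and DPYD, and the largest rises in SAMHD1 and CMPK2, again among genes averaging at least 5 CPM. SLC29A1, the main equilibrative nucleoside transporter, was at 71.3, 77.6 and 74.4 CPM with the control siRNA, 76.2, 75.3 and 70.0 after siMYCN and 49.0, 48.2 and 48.1 after siHAND2. The siHAND2 libraries lay far below the others, with a log2 change of -0.61 (SE 0.05, adjusted p = 8.77e-08), and siMYCN overlapped control. SAMHD1, which degrades deoxynucleotide triphosphates, was at 58.8, 59.7 and 54.6 CPM with the control siRNA, 59.5, 59.6 and 57.7 after siMYCN and 85.5, 80.1 and 83.7 after siHAND2. It rose by 0.52 under siHAND2 (SE 0.05, adjusted p = 4.45e-07). The direct comparison of the knockdowns was called for both genes, at -0.60 for SLC29A1 (adjusted p = 8.19e-08) and 0.49 for SAMHD1 (adjusted p = 7.91e-07). DPYD, which starts pyrimidine breakdown, fell under siHAND2 by 0.46 on the log2 scale (adjusted p = 0.00133). CMPK2, a mitochondrial nucleotide kinase, rose in both knockdowns, from 7.82 ± 0.849 to 10.6 ± 0.554 CPM in siMYCN and 10.5 ± 1.48 in siHAND2 (adjusted p = 0.00435 and 0.00713).

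Markers of the labelled cell type and of other cells were read in the same libraries. All 12 noradrenergic neuroblastoma markers were tested, with a summed level of 2963 to 3123 CPM with the control siRNA, 3652 to 3803 after siMYCN and 3173 to 3297 after siHAND2. Of these 10 were called higher and none lower under siMYCN, where 24.5% and 11.4% of all tested genes were. Under siHAND2 4 were higher and 3 lower, beside 18.1% and 11.8% of all tested genes. Between control and siHAND2 the mean of DBH went from 263 to 130 CPM, of TH from 2.95 to 1.43 and of DDC from 131 to 110. In the other direction, ISL1 went from 202 to 313 CPM and STMN2 from 177 to 343. The fibroblast list, of which 7 of 8 genes were tested, summed to 393 to 422 CPM with the control siRNA, 474 to 489 after siMYCN and 760.5 to 857 after siHAND2, with 6 genes called higher in each knockdown. From control to siHAND2 the group means went from 1.66 to 15.9 CPM for COL1A2, from 0.431 to 11.0 for DCN, from 9.15 to 54.7 for LUM and from 1.42 to 3.84 for COL3A1. PDGFRA went from 121 to 341 CPM and PDGFRB from 89.8 to 179, while FBLN1 was at 186 and 199 and COL1A1 at 0.720 and 0.363. Their part in the members' values was not tested. Schwann, leukocyte and endothelial markers found in the table each averaged under 1 CPM, and none was tested.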

How the data were processed

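The single table used holds CPM (counts scaled to a common library total) per gene for 9 libraries, normalized and deposited by the authors. STAR 2.5.1 and Partek, with hg19 as the build, are named per the submitters' processing notes. The table's gene positions lie within 5000 bases of GRCh38 starts for 91.4% of 18213 symbols and for 30 of the 31 members (PAICS starts elsewhere), so printed positions are GRCh38. Groups came from the sample labels. Low CPM values were not whole read multiples often enough (79.2% to 80.5%, 95% needed), so no count model was used. Genes reaching 1 CPM or more in 3 or more libraries (14495 tested, 10589 left out) were fitted as log2(CPM + 1) with limma 3.58.1 (R 4.3.3), all 9 libraries in 1 model with an intensity trend, Benjamini-Hochberg adjustment over all tested genes and a threshold of 0.05. The code was tested on simulated data. Pair differences and sequence matches were computed in Python 3.11.15 with scipy 1.17.1. Values in every library are given for the 3 members of a role with the smallest p, and pathway genes outside the members are named by the 2 largest rises and falls with a mean of at least 5 CPM, of which 1 is not reported here. The members, lists and tests were chosen with earlier results of these data known. Alternatives were pseudocounts of 0.1 and 5, no filter or one of 5 CPM, median-ratio rescaling, quantile normalization, fits of 2 groups, no intensity trend, a replicate block and leaving out each library.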

Additional observations from a re-analysis of the deposited data

How the results depend on the processing

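The number of members called lower stayed within 1.5 times its value under every alternative run: 16 to 26 under siMYCN and 14 to 21 under siHAND2. The number over all tested genes moved too. Under siMYCN it ran from 1246 of 14448 (without replicate 2 of siCTR) to 2395 of 14495 (quantile normalization). Under siHAND2 it ran from 1222 of 14448 (without replicate 2 of siCTR) to 2299 of 14498 (median-ratio rescaling). With no filter on low values it was 1449 and 1541 of 25084. Members called higher under siMYCN numbered 0 after median-ratio rescaling, 0 after quantile normalization and 1 without an intensity trend, and 1 to 2 when a library was left out, in place of 2. The calls that held under all 15 alternatives were 16 of 23 under siMYCN, 15 of 19 under siHAND2 and 8 of 12 between the knockdowns. With a replicate block, 21 members were lower and 2 higher under siMYCN, 19 and 2 under siHAND2, and 11 higher and 4 lower between the knockdowns. The calls it added were GART and ADSS2 under siHAND2 and ADSL (adjusted p = 0.0495), DCTPP1 and ADK between the knockdowns. Deviations of same-numbered libraries correlated at -0.04 to 0.31 and those of differently numbered libraries at -0.30 to 0.14. Same-numbered pairs stood at 0.13 to 0.31 for replicate 1, 0.17 to 0.18 for replicate 3 and -0.04 to 0.08 for replicate 2. Replicate 2 of siMYCN correlated better with replicate 3 of siHAND2 (0.14) than with its replicate 2 (-0.04). The numbers were not taken to pair the libraries in the main fit, but whether same-numbered libraries share a batch was not tested. The block also raised the calls over all tested genes, from 5209 to 5895 under siMYCN, 4339 to 5089 under siHAND2 and 3892 to 4689 between the knockdowns. Over all tested genes 3556 were higher under siMYCN and 2333 after quantile normalization. Some uncalled differences near 0 changed sign. After median-ratio rescaling these were RRM1 under siHAND2 (-0.00122) and TYMS under siMYCN (-0.013) and siHAND2 (-0.027), and after quantile normalization TYMS again (-0.013 and -0.017). Leaving out 1 library gave ranges of -0.026 to 0.11 for TYMS under siMYCN. Under siHAND2 they were -0.0068 to 0.034 for TYMS, -0.0201 to 0.012 for CTPS1 and -0.067 to 0.0078 for TK1. Between the knockdowns they were -0.00375 to 0.030 for PRPS1, -0.00931 to 0.12 for PFAS, -0.038 to 0.029 for GMPS, -0.0882 to 0.042 for TYMS and -0.094 to 0.036 for HPRT1. For pair differences they were -0.011 to 0.052 (PRPS1 minus PRPS2) and -0.025 to 0.00359 (NME1 minus NME2) under siHAND2, and -0.035 to 0.051 for RRM2 minus RRM2B between the knockdowns. The cause was not tested. With 3 libraries a group, differences under about 0.1 on the log2 scale were mostly not resolved.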

Other observations

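Partner enzymes outside the 31 genes were also read. RRM2B, the small subunit of ribonucleotide reductase that does not follow the cell cycle, averaged 45.8 CPM with the control siRNA, 44.3 after siMYCN and 48.5 after siHAND2 and was not called against control (limma, adjusted p = 0.533 and 0.317). RRM2 minus RRM2B, in log2(CPM + 1), was 0.17 higher than control in siMYCN and 0.18 higher in siHAND2, without overlap. TK2, the mitochondrial thymidine kinase, rose in both knockdowns, from 10.7 CPM to 12.6 and 12.7 (log2 changes 0.21 and 0.23, adjusted p = 0.0339 and 0.027). TK1 minus TK2 was lower without overlap by -0.13 and -0.27 (exact permutation p = 0.1, the smallest possible). ADSS1, the muscle-type partner of ADSS2, averaged under 1 CPM in each group and was not tested.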
